A study of Mus musculus with 6 samples.

Results

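The Hox genes encode homeodomain transcription factors, and all 39 genes whose symbol is Hox followed by a cluster letter from a to d and a paralog number were taken from a table of 55401 genes. RNA was measured by poly(A) RNA sequencing, from a library kit that marks the strand, in a mutated derivative of the NIH-3T3 line (MU, 3 libraries) and in the line itself (WT, 3 libraries). NIH-3T3 is an immortalised mouse line that the labels give as embryonic fibroblasts, and both groups grew in the same serum-supplemented medium with no other agent. The labels give the genotype of the derivative only as a mutation, without the gene, and do not say whether it is a single clone or whether the libraries of a group came from separate cultures. Any other difference between the derivative and the line cannot be told apart from the mutation, and p-values reflect the spread among these 6 libraries alone. The series' title concerns errors of mitochondrial translation, and no aim concerning Hox genes is stated.

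Mammalian Hox genes sit in clusters named A to D, and genes with the same paralog number in different clusters descend from a common ancestor. In the embryo, genes with low paralog numbers are switched on earlier and nearer the head, and those with high numbers later and nearer the tail, in the order in which they lie along the chromosome. Fibroblasts taken from different parts of the body keep different combinations of active Hox genes in culture, which makes these genes a record of the position the cells came from.

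Expression was taken as a TPM of at least 1 (a length-corrected share of a library's transcripts, scaled to the same total in each library) in at least 3 of the 6 libraries. By this rule 18 of the 39 Hox genes were expressed, and each of the 18 reached 1 TPM in all 6 libraries, so none passed through 1 group alone. Of the other 21, 14 were above 0 in some library and 7 were listed at 0 in all 6. The HoxA cluster (chromosome 6, minus strand) had 7 of 11 genes expressed, among them Hoxa2 to Hoxa7. The HoxB cluster (chromosome 11, 96194316 to 96368256, plus strand, GRCm38) had 4 of 10, Hoxb3, Hoxb5, Hoxb6 and Hoxb9. The HoxC cluster (chromosome 15, 102921103 to 103036852, plus strand) had 3 of 9, Hoxc4 to Hoxc6. The HoxD cluster (chromosome 2, 74668310 to 74765142, plus strand) had 4 of 9, Hoxd3, Hoxd4, Hoxd8 and Hoxd9. No gene with a paralog number of 10 or above was expressed in either group. All members of paralog groups 3, 5 and 6 were expressed.

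**Figure D1:**
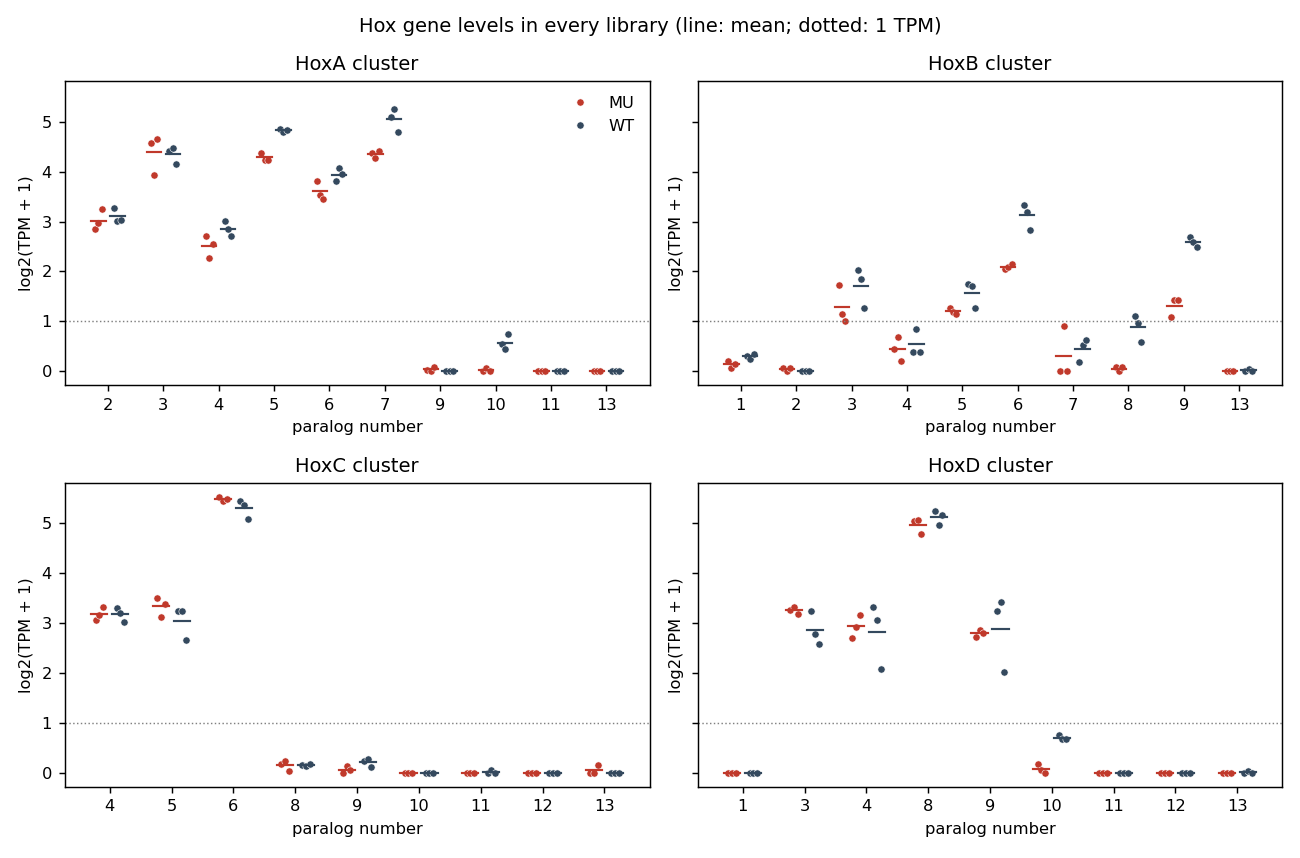
Level of the Hox genes reported here in every library, by cluster and paralog number, as log2(TPM + 1); points are the 3 MU and the 3 WT libraries, short lines are means and the dotted line is 1 TPM. Expression ends at paralog number 7 in HoxA, 9 in HoxB and HoxD and 6 in HoxC, and the MU points of Hoxa5, Hoxa7, Hoxb6 and Hoxb9 lie below all WT points.

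Of the 18 expressed Hox genes, 4 fell in MU (Hoxa5, Hoxa7, Hoxb6 and Hoxb9), none rose, and 14 did not pass an adjusted p of 0.05 in limma's test over all 14209 expressed genes. The 4 called genes are 22.2% of the expressed members, beside 11.6% lower, 7.12% higher and 18.8% in either direction among all genes tested. At an unadjusted p under 0.05 in limma, 6 members (33.3%) were lower, Hoxa6 among them, and 0 higher, beside 20.1% lower and 13.2% higher among all genes tested. The median log2 fold change, MU minus WT, was −0.25 over the 18 genes and −0.05 over all genes tested, with a lower mean difference in MU for 12 members and a higher one for 6. In 5 of the 18, the 4 called genes among them, every MU library lay below every WT library, and in none did every MU library lie above, against 23% and 16.1% of all genes. All fold changes from limma are differences of log2(TPM + 1), which understates the change of genes near 1 TPM. In bulk RNA, fewer cells with a transcript and less of it per cell cannot be told apart.

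**Figure D2:**
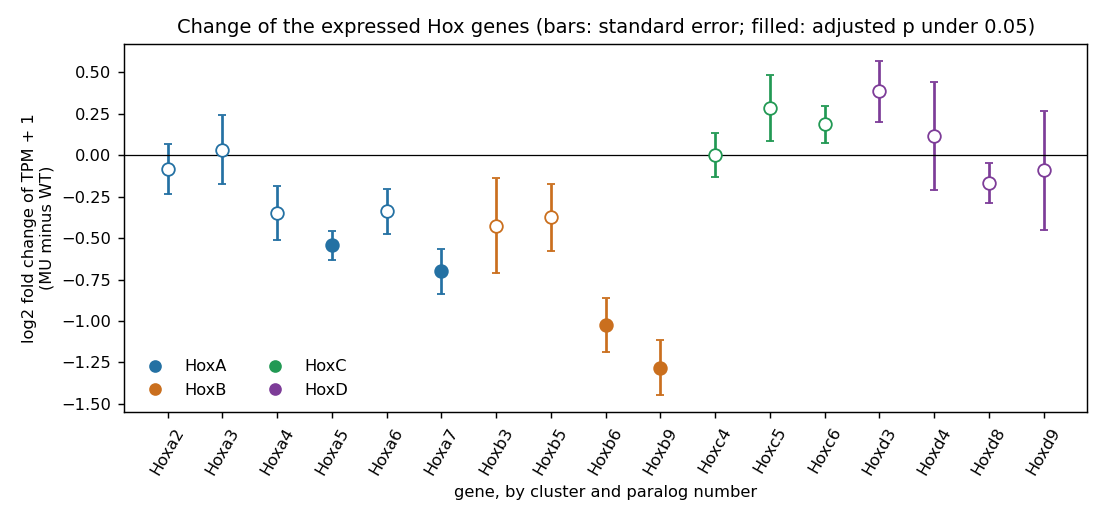
Log2 fold change of TPM + 1, MU minus WT, for the expressed Hox genes reported here, in order of cluster and paralog number; bars are standard errors and filled points have an adjusted p under 0.05. The filled points are Hoxa5, Hoxa7, Hoxb6 and Hoxb9, at −0.54, −0.70, −1.02 and −1.28.

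The largest of these differences was in Hoxb9 (ENSMUSG00000020875.9, chromosome 11, 96271457 to 96276595), a trunk gene known in the mouse from rib and forelimb patterning. Its level was 1.13, 1.68 and 1.69 TPM in MU, against 5.45, 5.06 and 4.65 TPM in WT. The highest MU library was well under the lowest WT library, and the means were 1.498 ± 0.323 TPM in MU and 5.05 ± 0.402 TPM in WT (SD, n = 3 each). The log2 fold change was −1.28 (SE 0.17, limma adjusted p 0.00426).

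Hoxb6 (ENSMUSG00000000690.5, chromosome 11, 96292476 to 96301569), which acts in the thoracic region and in the lateral plate mesoderm, lies on the other side of Hoxb7 and Hoxb8 from Hoxb9. It had 3.15, 3.27 and 3.44 TPM in MU, against 9.13, 8.20 and 6.11 TPM in WT. The MU libraries were close together, and the groups did not overlap. The means were 3.29 ± 0.145 TPM in MU and 7.81 ± 1.54 TPM in WT (SD, n = 3 each), −1.02 as a log2 fold change (SE 0.16, limma adjusted p 0.00876). Hoxb6 ranked 14 of the 18 expressed genes by mean TPM in MU and 8 in WT. The calls of Hoxb6 and Hoxb9 held when any library was left out, with limma adjusted p between 0.00726 and 0.0422 for Hoxb6 and between 0.0105 and 0.0234 for Hoxb9.

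Hoxa7 (ENSMUSG00000038236.8, chromosome 6, 52214491 to 52221854), a thoracic gene, had 19.8, 18.3 and 20.2 TPM in MU, against 33.4, 37.4 and 26.7 TPM in WT. The groups did not overlap, and the spread was on the WT side, with means of 19.5 ± 1.02 TPM in MU and 32.5 ± 5.43 TPM in WT (SD, n = 3 each). The log2 fold change was −0.70 (SE 0.14, limma adjusted p 0.0165). The call was lost without WT replicate 1 (limma adjusted p 0.0628) and without any 1 of the MU replicates (limma adjusted p 0.0563 to 0.0729), with the direction kept. An antisense gene, Hoxaas3, covers 20.4% of the exon bases of Hoxa7, and whether the authors' counting used strand is not stated in the labels or headers. Hoxaas3 averaged 6.72 TPM in MU and 6.80 TPM in WT (limma adjusted p 0.905).

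Hoxa5 (ENSMUSG00000038253.6, chromosome 6, 52201754 to 52204587), which patterns the lower neck vertebrae and the lung, had 19.9, 17.9 and 17.8 TPM in MU, against 28.0, 26.6 and 27.6 TPM in WT. The groups were well separated, at 18.5 ± 1.15 TPM in MU and 27.4 ± 0.737 TPM in WT (SD, n = 3 each). The log2 fold change was −0.54 (SE 0.09, limma adjusted p 0.00915), and the call was lost without MU replicate 2 (limma adjusted p 0.0541). The exons of Hoxa5, Hoxb6 and Hoxb9 share no base with another annotated gene.

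The other 5 expressed HoxA genes did not pass the test. Hoxa4 averaged 4.74 TPM in MU and 6.27 TPM in WT (limma adjusted p 0.193), and Hoxa6 averaged 11.2 ± 1.66 TPM in MU and 14.4 ± 1.42 TPM in WT (SD, n = 3 each; limma adjusted p 0.137). Neither passed the test, and their groups overlapped or touched. Hoxa2, which patterns the second pharyngeal arch, averaged 7.18 TPM in MU and 7.63 TPM in WT (limma adjusted p 0.752). Hoxa3, needed for the thymus and parathyroid, had 22.9, 14.2 and 24.1 TPM in MU, against 20.3, 21.3 and 16.9 TPM in WT, and its MU libraries spanned the whole WT range (limma adjusted p 0.930). The other 2 expressed HoxB genes, Hoxb3 and Hoxb5, were the lowest expressed with Hoxb9 in MU. Hoxb3 averaged 1.51 TPM in MU and 2.36 TPM in WT (limma adjusted p 0.358), and Hoxb5 averaged 1.30 TPM in MU and 2.01 TPM in WT (limma adjusted p 0.251). An antisense gene, Hoxb3os, covers 52.9% of the exon bases of Hoxb3 and averaged 0.105 TPM in MU and 0.0672 TPM in WT.

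No HoxC or HoxD gene above the minimum passed the test. Hoxc6, a thoracic gene whose forward limit marks the neck to thorax boundary in vertebrates, had the highest mean Hox TPM in both groups. It had 45.5, 42.7 and 43.8 TPM in MU, against 42.9, 40.2 and 33.1 TPM in WT, and the groups overlapped (log2 fold change 0.19, limma adjusted p 0.302). Hoxd8 was the next in both groups, at 32.0, 32.5 and 26.5 TPM in MU, against 37.1, 30.5 and 34.8 TPM in WT (log2 fold change −0.17, limma adjusted p 0.392). By mean TPM, MU and WT thus shared their leading pair of genes. The next by mean were Hoxa3 and Hoxa7 in MU and Hoxa7 and Hoxa5 in WT. Single libraries did not all keep this order. Hoxd8 was above Hoxc6 in WT replicate 3, Hoxa7 was above Hoxd8 in WT replicate 2, and Hoxa3 was below Hoxa7 in MU replicate 2. Hoxc5 averaged 9.20 TPM in MU and 7.45 TPM in WT (limma adjusted p 0.367). Hoxc4 averaged 8.14 TPM in MU and 8.13 TPM in WT (limma adjusted p 0.991). These adjusted p-values do not show that the levels were equal.

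Hoxd3, Hoxd4 and Hoxd9 varied mainly among the WT libraries, and WT replicate 3 held the lowest value of each. Hoxd9, a paralog of Hoxb9 that acts in the limb and lumbosacral region, had 5.63, 6.28 and 6.04 TPM in MU, against 8.47, 9.73 and 3.04 TPM in WT. With all libraries it did not pass the test (limma adjusted p 0.888), and without WT replicate 3 it was called lower in MU (limma adjusted p 0.0474). Hoxd4 had 5.56, 6.61 and 7.99 TPM in MU, against 8.98, 7.36 and 3.23 TPM in WT (limma adjusted p 0.843). Hoxd3 had 8.58, 9.07 and 8.08 TPM in MU, against 8.49, 5.86 and 5.03 TPM in WT (log2 fold change 0.39, limma adjusted p 0.200). A further annotated gene on the same strand, Gm28230, shares 53.1% of the exon bases of Hoxd3 and 39.1% of those of Hoxd4, so reads in those exons have no single source and both levels are uncertain.

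Summed TPM of all 39 Hox genes was 206 ± 9.23 in MU and 242 ± 26.4 in WT (SD, n = 3 each). The HoxB sum was 8.61, 8.94 and 7.72 TPM in MU, against 21.9, 20.5 and 15.2 TPM in WT. The HoxA sum was 91.0, 74.5 and 89.1 TPM in MU, against 116, 119 and 104 TPM in WT. In both clusters every MU library was below every WT library, while the HoxC and HoxD sums overlapped. As a share of summed Hox TPM, HoxB gave 4.09% in MU and 7.90% in WT, HoxA 41.0% in MU and 46.9% in WT, HoxC 29.8% in MU and 22.5% in WT, and HoxD 25.1% in MU and 22.6% in WT. The shares must total the whole, so a lower share in HoxA and HoxB raises the others. By paralog number, the sum of group 7 was 19.7 TPM in MU and 32.9 TPM in WT, without overlap. Hoxa7 is the only expressed member of that group, at 19.5 TPM in MU and 32.5 TPM in WT. The sum of group 9 was 6.78, 8.06 and 7.84 TPM in MU, against 14.1, 15.0 and 7.78 TPM in WT, and the groups overlapped through WT replicate 3. The sum of group 6, to which Hoxc6 belongs, was 58.5 TPM in MU and 61.0 TPM in WT. These sums are descriptions and carry no test.

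**Figure D3:**
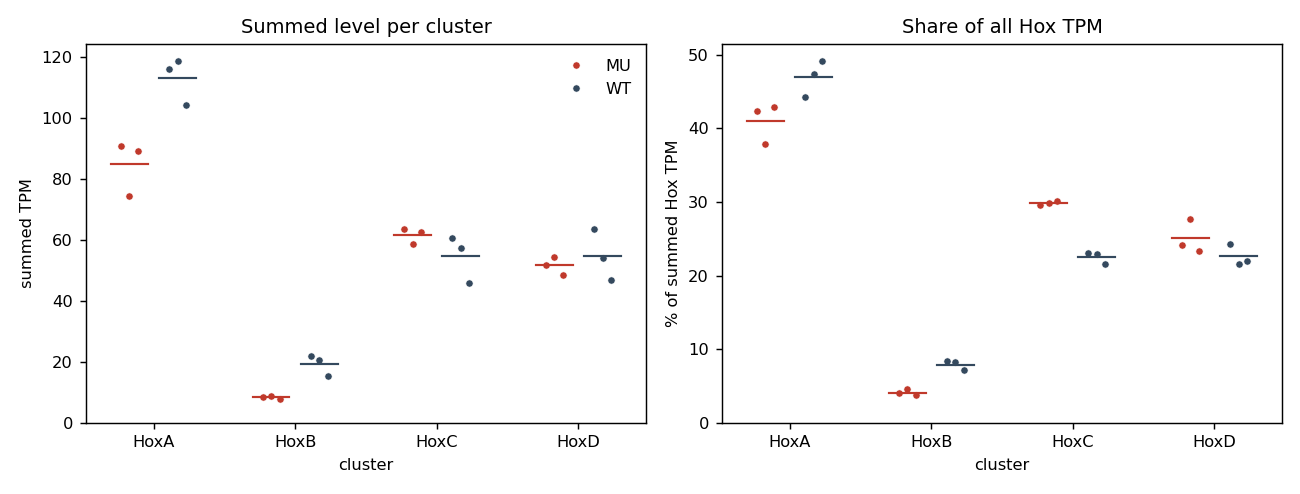
Summed TPM of each Hox cluster (left) and its share of all Hox TPM (right) in the 3 MU and 3 WT libraries; short lines are means. The MU points lie below the WT points in HoxA and HoxB in both panels and above them in the share of HoxC, at means of 29.8% in MU and 22.5% in WT.

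Several genes under the minimum were detected almost only in WT. Hoxd10, which acts in the lumbar spinal cord and hindlimb, had 0.132, 0.0456 and 0 TPM in MU, against 0.694, 0.593 and 0.592 TPM in WT. Hoxa10, which acts in the lumbar region and the uterus, was listed at 0 in MU replicates 1 and 3 and at 0.0489 TPM in MU replicate 2, against 0.455, 0.363 and 0.671 TPM in WT. Hoxb8, a trunk gene that lies between Hoxb9 and Hoxb6, had 0.0578, 0 and 0.0573 TPM in MU, against 1.16, 0.948 and 0.509 TPM in WT. In each of these genes the groups did not overlap, at levels at or below about 1 TPM. How often the groups separate among all genes under the minimum was not counted, so the separation carries no weight of its own. With no filter on low values, limma was run on the 30959 genes above 0 in some library and called 7 of 32 Hox genes lower, adding these 3 to the 4 above, and none higher. The background in that fit was 3.85% lower and 2.26% higher. The sets differ in level, as 14 of the 32 Hox genes and 16750 of the 30959 genes were under the expression minimum. The shares are therefore not strictly comparable. The log2 fold changes were −0.62 for Hoxd10 (limma adjusted p 0.0144), −0.55 for Hoxa10 (limma adjusted p 0.0270) and −0.84 for Hoxb8 (limma adjusted p 0.0348).

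In the authors' deposited table of their own comparison, 21 Hox genes have an adjusted p. There, 6 of them are lower in MU and none higher, where 11.6% of the 17009 genes with an adjusted p are lower. The 6 are Hoxa5, Hoxa7, Hoxb6, Hoxb8, Hoxb9 and Hoxd10, with log2 fold changes in the authors' deposited table of −0.49, −0.65, −1.07, −1.77, −1.49 and −1.14. That table comes from the same libraries and is no independent evidence.

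The other genes above 0 but not expressed stayed under 1 TPM in every library. Hoxb1, a hindbrain gene, averaged 0.101 TPM in MU and 0.231 TPM in WT and was not called (limma adjusted p 0.234 with no filter). Hoxb4, Hoxb7, Hoxc8 and Hoxc9 overlapped between the groups. Hoxa9, Hoxb2 and Hoxc13 were above 0 in MU libraries only, at 0.124 TPM or less. Hoxb13, Hoxc11 and Hoxd13 were above 0 in WT replicate 2 only. Hoxa11, Hoxa13, Hoxc10, Hoxc12, Hoxd1, Hoxd11 and Hoxd12 were listed at 0 throughout. TPM keeps no depth, so no detection limit can be given for a value of 0.

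**Figure D4:**
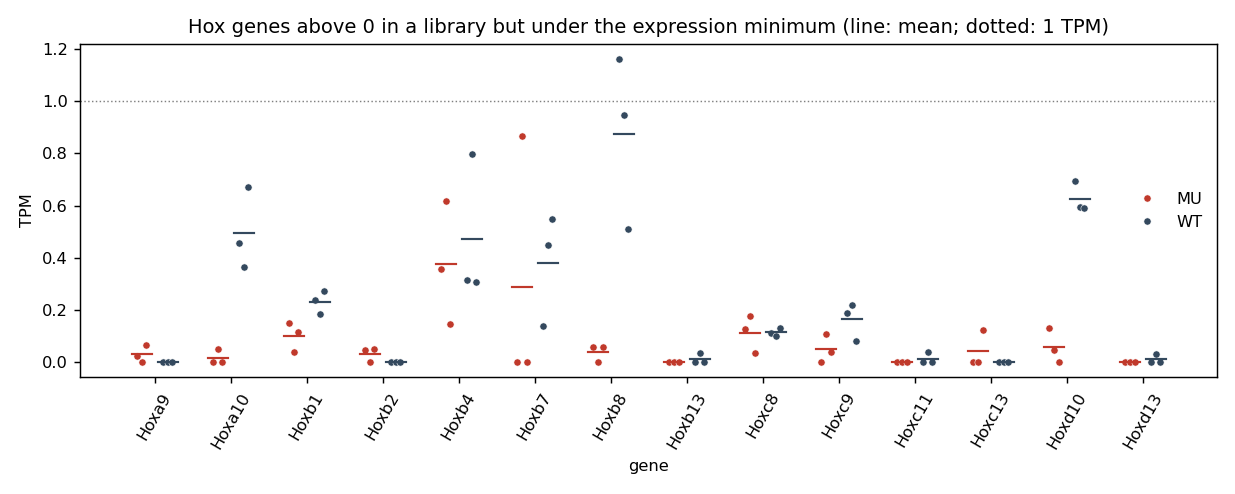
TPM of the 14 Hox genes above 0 in some library but under the expression minimum, in the 3 MU and 3 WT libraries; short lines are means and the dotted line is 1 TPM. Hoxa10, Hoxb8 and Hoxd10 have MU points near 0 and WT points between 0.363 and 1.16 TPM.

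Promoter sequences from RefSeq (GRCm38.p6, 250 bases before to 50 after the start) were matched for 22 of the 39 members, and 5 of the 7 genes lower with no filter have one. They are shown because these genes differ in the same direction. Each reads 5′ to 3′ on the strand of the gene, and capitals mark matches on either strand to motifs of factors known to act on Hox genes or of the core promoter.
Hoxa5 (chr6:52204538-52204837, minus strand): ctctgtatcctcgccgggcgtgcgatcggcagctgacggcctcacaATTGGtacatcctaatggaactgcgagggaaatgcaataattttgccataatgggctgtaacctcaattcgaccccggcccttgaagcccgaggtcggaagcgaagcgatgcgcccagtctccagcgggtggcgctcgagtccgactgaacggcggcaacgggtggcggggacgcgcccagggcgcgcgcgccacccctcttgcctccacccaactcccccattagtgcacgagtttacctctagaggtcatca
Hoxa7 (chr6:52218524-52218823, minus strand): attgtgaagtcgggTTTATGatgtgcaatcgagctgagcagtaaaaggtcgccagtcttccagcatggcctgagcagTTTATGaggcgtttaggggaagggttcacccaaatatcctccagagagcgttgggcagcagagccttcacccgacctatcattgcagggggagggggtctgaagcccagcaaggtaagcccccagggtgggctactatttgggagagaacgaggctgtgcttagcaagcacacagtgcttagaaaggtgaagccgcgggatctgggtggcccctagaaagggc
Hoxa10 (chr6:52240805-52241104, minus strand): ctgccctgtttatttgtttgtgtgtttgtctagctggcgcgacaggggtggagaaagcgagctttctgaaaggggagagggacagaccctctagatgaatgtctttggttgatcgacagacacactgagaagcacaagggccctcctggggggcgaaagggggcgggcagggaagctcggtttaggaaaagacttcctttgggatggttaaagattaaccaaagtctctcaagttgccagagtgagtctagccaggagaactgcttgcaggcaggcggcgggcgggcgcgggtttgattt
Hoxb8 (chr11:96281655-96281954, plus strand): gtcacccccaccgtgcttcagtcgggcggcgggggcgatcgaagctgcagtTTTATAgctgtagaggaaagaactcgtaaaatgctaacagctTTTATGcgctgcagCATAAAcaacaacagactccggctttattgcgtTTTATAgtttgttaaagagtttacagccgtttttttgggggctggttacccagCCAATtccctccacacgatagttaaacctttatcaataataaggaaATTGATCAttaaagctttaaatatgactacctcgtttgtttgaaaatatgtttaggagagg
Hoxd10 (chr2:74691641-74691940, plus strand): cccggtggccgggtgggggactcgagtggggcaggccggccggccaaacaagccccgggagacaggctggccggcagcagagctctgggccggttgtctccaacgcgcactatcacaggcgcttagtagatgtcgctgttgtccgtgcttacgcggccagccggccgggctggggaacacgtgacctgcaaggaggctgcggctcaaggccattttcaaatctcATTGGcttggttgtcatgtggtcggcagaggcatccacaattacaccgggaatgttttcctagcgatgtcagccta
The motifs searched were TGATNNAT for a PBX and HOX pair, TGACAG for MEIS, TTTATG for CDX, 2 copies of AGGTCA in the same direction with 5 bases between them for the retinoic acid receptor, the CCAAT box, and TATAAA for the TATA box. Among 32851 RefSeq promoters of the same length, the PBX and HOX motif was in 8.85%, MEIS in 19.2%, CDX in 11.9%, the retinoic acid motif in 0.00913%, CCAAT in 37.4% and TATAAA in 13.6%. The Hoxb8 window held 1 PBX and HOX match, 2 CDX, 1 CCAAT and 2 TATAAA matches. Hoxa7 held 2 CDX matches, Hoxa5 and Hoxd10 held 1 CCAAT match each, and Hoxa10 held none. No matches overlapped in these windows, and no motif was in all 5. The RefSeq start used for Hoxa7 lies 3281 bases downstream of the annotated 5′ end of the gene. A match is a description of the letters and not a binding site.

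Inside the clusters, 46 other genes are annotated (GENCODE M21), of which 14 were expressed, 2 (14.3%) fell and none rose, with the same counts at an unadjusted p under 0.05 in limma. The share that fell was near the 11.6% of all genes. Gm53, a long noncoding RNA gene between Hoxb13 and Hoxb9 (chromosome 11, 96251105 to 96264868, plus strand), had 3.17, 3.16 and 3.47 TPM in MU, against 11.4, 13.04 and 13.9 TPM in WT. It had the largest called difference within the clusters, −1.69 on the log2 scale (SE 0.12, limma adjusted p 0.00062), and the call was kept in every alternative run. Gm53, Hoxb9, Hoxb8 and Hoxb6 are the called genes of the HoxB cluster, Hoxb8 only with no filter. They span positions 96251105 to 96301569 on chromosome 11, limits that are set by these genes themselves. Within the limits, Hoxb7 averaged 0.289 TPM in MU and 0.378 TPM in WT, and Mir196a-1 averaged 3.56 TPM in MU and 8.97 TPM in WT. Both overlapped between the groups, and neither was called (limma adjusted p 0.806 with no filter for Hoxb7 and 0.170 for Mir196a-1). 5730596B20Rik, within the span of Hoxa3 on the other strand, averaged 2.31 ± 0.386 TPM in MU and 4.15 ± 0.393 TPM in WT (SD, n = 3 each; limma adjusted p 0.0363), a call lost in 9 alternatives. Of the 16 listed Hox cluster noncoding RNAs found in the table, 6 were expressed and none was called by limma, nor was any at an unadjusted p under 0.05. Among them, Hotairm1, a HoxA noncoding RNA, averaged 27.9 ± 10.7 TPM in MU and 40.7 ± 22.3 TPM in WT (SD, n = 3 each; limma adjusted p 0.480).

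The 24 nearest expressed protein-coding genes outside the clusters, 3 on each side of each, held 3 lower calls (12.5%, beside 11.6% of all genes) and 1 higher call (4.17%, beside 7.12%). Their median log2 fold change was −0.10 for HoxA, −0.11 for HoxB, 0.02 for HoxC and −0.23 for HoxD. The 24 genes lay 60.7 to 2317 kb from their cluster, so not all are close neighbours. Called lower were Ube2z, 129 kb from HoxB (−0.39, limma adjusted p 0.0144), and Mtx2, 60.7 kb from HoxD (−0.40, limma adjusted p 0.0203). Atp5g3, 757 kb from HoxD, was also lower (−0.37, limma adjusted p 0.0419). Calcoco1, 199 kb from HoxC, was called higher (0.99, limma adjusted p 0.0439). These calls were lost in 4 alternatives for Ube2z, 6 for Mtx2, 11 for Atp5g3 and 8 for Calcoco1. Centring each gene on the median difference of its chromosomal neighbours left the 4 Hox calls in place.

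Hox proteins bind DNA with cofactors of the TALE homeodomain class. The list of these also holds Pbxip1, which is not of that class. Of its 9 expressed genes, 3 rose, Pbxip1 among them (33.3%, beside 7.12% of all genes), and none fell. At an unadjusted p under 0.05 in limma 3 were higher and 1 lower, and the median log2 fold change was 0.02. Meis1, which binds with HOX and PBX proteins, had 15.3, 16.4 and 17.2 TPM in MU, against 6.67, 7.24 and 5.58 TPM in WT. The groups did not overlap and their means lay 1.21 apart on the log2 scale (SE 0.12, limma adjusted p 0.00203), and the call was kept in every alternative run. Pbxip1, which encodes a PBX-interacting protein, averaged 11.1 ± 0.853 TPM in MU and 7.23 ± 0.365 TPM in WT (SD, n = 3 each; limma adjusted p 0.0174). The Pbxip1 call was lost in 4 alternatives. Meis2, the most abundant Meis gene in both groups, averaged 17.6 ± 2.12 TPM in MU and 23.0 ± 1.58 TPM in WT (SD, n = 3 each) and was not called (limma adjusted p 0.0716).

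Polycomb complexes keep Hox genes silent, and trithorax proteins keep them active. Of 31 Polycomb genes, all expressed, 4 fell and none rose, with a median log2 fold change of −0.11. The 4 are 12.9% of the list, near the 11.6% of all genes. At an unadjusted p under 0.05 in limma 6 (19.4%) were lower and 1 higher, beside 20.1% lower among all genes. Phc2, a subunit of Polycomb repressive complex 1, had 78.9, 80.3 and 88.1 TPM in MU, against 139.6, 170.8 and 130.4 TPM in WT, a log2 difference of −0.82 (SE 0.12, limma adjusted p 0.00621). Its groups did not overlap and its call was kept in every alternative run. Phf19, an accessory subunit of Polycomb repressive complex 2, was listed at 0 in all MU libraries, against 2.34, 1.18 and 1.11 TPM in WT. It passed the filter through WT alone, so its call (limma adjusted p 0.0171) carries no weight of its own. Rbbp7 (−0.53, limma adjusted p 0.0179) and Pcgf3 (−0.51, limma adjusted p 0.0136) also fell, and the calls of these last 3 genes were lost when single MU libraries were left out. After centring on chromosomal neighbours the difference of Rbbp7 was −0.11 and its call was lost (limma adjusted p 0.554). The catalytic subunit gene Ezh2 averaged 60.4 TPM in MU and 68.8 TPM in WT (limma adjusted p 0.406). Of 22 trithorax and elongation genes, Ash2l (−0.38, limma adjusted p 0.0209) and Hcfc1 (−0.32, limma adjusted p 0.0379) fell and none rose, which is 9.09% lower beside 11.6% of all genes. At an unadjusted p under 0.05 in limma 8 (36.4%) were lower and 0 higher, beside 20.1% lower among all genes. The Ash2l call was lost in 8 alternatives and that of Hcfc1 in 10, and after centring on neighbours the difference of Ash2l was −0.19.

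Retinoic acid switches on Hox genes in the embryo. Of 10 expressed genes of this pathway 2 (20%) fell and none rose, beside 11.6% of all genes lower. At an unadjusted p under 0.05 in limma 3 (30%) were lower and 0 higher, beside 20.1% lower and 13.2% higher among all genes tested. Crabp1, a binding protein that limits free retinoic acid in the cytoplasm, had 229, 225 and 240.2 TPM in MU, against 415, 609 and 342 TPM in WT, without overlap (−0.93, limma adjusted p 0.0234). Rdh10, which makes the precursor retinaldehyde, averaged 12.1 ± 0.633 TPM in MU and 18.0 ± 2.62 TPM in WT (SD, n = 3 each; limma adjusted p 0.0326). Both calls were lost without any 1 of the MU replicates. Of 10 other expressed regulators, 1 rose (10%, beside 7.12% of all genes) and 1 fell (10%, beside 11.6%). Egr2, an activator of paralog 2 genes in the mouse hindbrain, rose (0.80, limma adjusted p 0.0207), and Ctcf, which shapes the borders of active Hox domains, fell (−0.42, limma adjusted p 0.0220). Each call was lost in 6 alternatives.

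Among 49 transcription factors outside the clusters that mark body regions, 15 were expressed, of which 1 rose (6.67%, beside 7.12% of all genes) and 2 fell (13.3%, beside 11.6%). Foxf1, a factor of gut and lung mesenchyme, had 0.255, 0.198 and 0.158 TPM in MU, against 2.64, 4.19 and 2.70 TPM in WT (log2 fold change −1.78, SE 0.22, limma adjusted p 0.00342). The groups lay far apart, but Foxf1 passed the filter through WT alone, so its call adds nothing to these values. Tbx3, a limb and flank factor, averaged 4.63 ± 0.629 TPM in MU and 10.4 ± 2.87 TPM in WT (SD, n = 3 each; limma adjusted p 0.0225), a call lost in 6 alternatives. After centring on neighbours the log2 difference of Tbx3 was −0.645, against −0.99 without it. Tbx15, Tbx18 and Shox2, factors of limb and trunk mesenchyme, were expressed in both groups and did not pass the test (limma adjusted p 0.151, 0.214 and 0.0625).

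**Figure D5:**
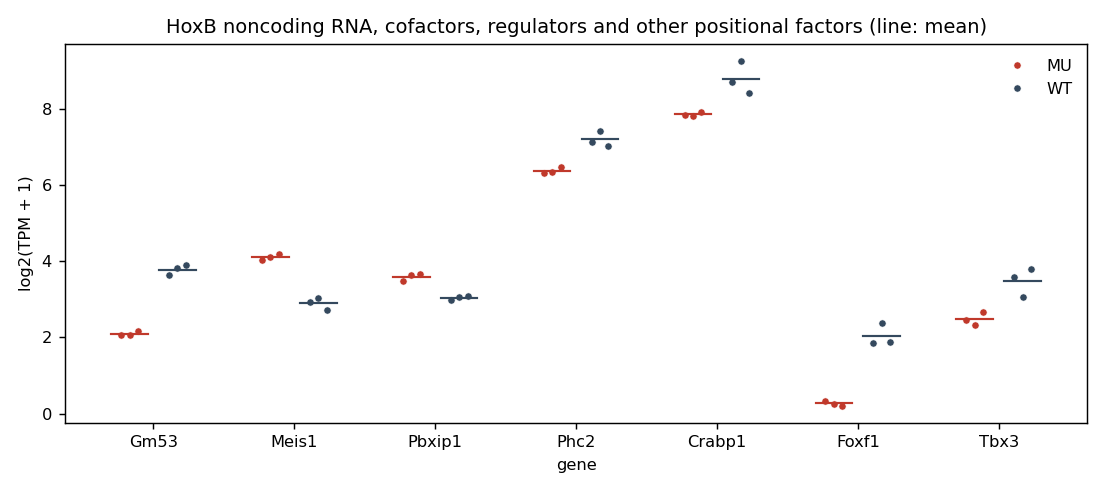
Level in log2(TPM + 1) of Gm53, the TALE cofactor gene Meis1, Pbxip1, Phc2, Crabp1 and the positional factors Foxf1 and Tbx3 in the 3 MU and 3 WT libraries. Short lines are means. MU points lie above all WT points for Meis1 and Pbxip1 and below them for the others.

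Of 15 fibroblast markers, 13 were expressed, and Lum and Fap were below the minimum. Lum had 0, 0.162 and 0.0311 TPM in MU, against 1.68, 0.812 and 1.07 TPM in WT (limma adjusted p 0.0308 with no filter). Fap was listed at 0 in all MU libraries, against 0.582, 0.0654 and 0.0273 TPM in WT (limma adjusted p 0.505 with no filter). The 15 markers summed to 12313 to 12834 TPM in MU and 9319 to 10519 TPM in WT. Of the 13 expressed, 6 rose (46.2%, beside 7.12% of all genes tested) and 1 fell (7.69%, beside 11.6%). The genes with the smallest adjusted p were Col1a2 (1.34, limma adjusted p 0.00062), Sparc (1.04, limma adjusted p 0.00163), Col5a1 (0.71, limma adjusted p 0.00281) and Col1a1 (0.91, limma adjusted p 0.00285), all matrix genes that rose, and Twist2 (−0.69, limma adjusted p 0.00332), a mesenchymal factor that fell. Of the markers of other cells, 1 of 9 epithelial genes (summed 2.01 to 2.68 TPM in MU and 1.18 to 1.91 TPM in WT), 2 of 8 muscle genes (4.89 to 5.69 TPM in MU and 1.03 to 1.09 TPM in WT) and 3 of 10 leukocyte and endothelial genes (10.4 to 12.0 TPM in MU and 6.09 to 8.53 TPM in WT) were expressed. Both expressed muscle genes were called higher, Acta1 at 3.004 TPM in MU and 0.658 TPM in WT and Ttn at 1.297 TPM in MU and 0.0857 TPM in WT, and both passed the filter through MU alone. Of the leukocyte and endothelial genes, Csf1r rose (5.34 TPM in MU and 1.87 TPM in WT, limma adjusted p 0.00528), and Cdh5, which passed the filter through WT alone, was at 0.105 TPM in MU and 1.82 TPM in WT (limma adjusted p 0.0186). Myod1, Myf5, Myog and Adgre1 were listed at 0 in all libraries. The part of these differences in the Hox results was not tested. Libraries within a group correlated at 0.971 to 0.976 in MU and 0.949 to 0.966 in WT, and between the groups at 0.937 to 0.945 (Pearson, across genes). The GC content of a gene was related to its deviation from its own mean over the 6 libraries. This relation differed between libraries, from a Spearman rho of −0.25 in WT replicate 3 to 0.33 in WT replicate 2. After a correction for GC content and length the 4 Hox calls stood.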

How the data were processed

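The submitters' processing notes name the mm10 build and, as tools, DESeq2 1.20.0, FastQC 0.11.4, featureCounts 1.5.0-p3 and HISAT2 2.05.0. The role of each tool, the strand setting, the annotation and the TPM calculation are not stated in these notes, the labels or the headers. Per the file headers, the authors' expression table holds log2(TPM + 1) per gene and library. The second deposited table holds the authors' own log2 fold changes with p-values, raw and adjusted. TPM, as deposited, keeps no depth, so depth is unknown and no counting interval was computed.

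Values were returned to TPM. Genes with at least 1 TPM in at least 3 of 6 libraries were tested as log2(TPM + 1) with limma 3.58.1 in R 4.3.3 (intensity trend, two-sided, Benjamini-Hochberg over 14209 genes, called at an adjusted p under 0.05). The procedure was tested on simulated data. Gene IDs, without version, were matched to GENCODE M21 (GRCm38) for 55141 of 55401 genes.

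The members and lists were chosen with earlier results of these data known. Every member is counted, and a few genes that the lists hold are not reported here. From each list, genes with an adjusted p under 0.05 were named, up to 4 higher and 4 lower with the smallest values, with the genes inside the clusters and the 3 nearest expressed protein-coding genes on each side. Hotairm1, Mir196a-1, Meis2, Ezh2, Tbx15, Tbx18 and Shox2 were named after their values were seen. Alternatives were the pseudocount, the filter, the scaling, the limma options, a replicate block, each library left out, a centring on chromosomal neighbours and, added after seeing the data, a correction for GC content and length.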

Additional observations from a re-analysis of the deposited data

How the results depend on the processing

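The count of Hox genes called lower in MU was 4 and stayed within 1.5 times of that under other pseudocounts, scalings, limma options, a minimum of 5 TPM, centring on chromosomal neighbours and the correction for GC content and length, which was added after seeing the data. It was 7 with no filter and 2 with the replicate number as a block, where limma adjusted p was 0.0536 for Hoxa5 and 0.0618 for Hoxa7. With 1 library left out it ranged from 2 (without MU replicate 2) to 5, and no Hox gene was called higher under any setting. At the minimum of 5 TPM, Hoxb9 fell under the filter and was not tested. All genes called numbered 2667, 1093 with the replicate block, and 1071 to 3391 with 1 library left out (1071 to 1430 without any of the MU replicates or WT replicate 1). Deviations of same-numbered MU and WT libraries from their group means correlated at r = 0.0495, 0.0154 and −0.0744. With 3 libraries per group these values cannot decide whether same-numbered libraries share a batch. The labels do not state a pairing. Signs reversed only for uncalled genes. With 1 library left out, log2 fold changes ranged from −0.197 to 0.00617 for Hoxa2, −0.0967 to 0.263 for Hoxa3, −0.0745 to 0.068 for Hoxc4, −0.254 to 0.364 for Hoxd4 and −0.531 to 0.173 for Hoxd9, and centring on neighbours gave −0.158 for Hoxc4. The cause was not tested. Of 870 alternative values for 49 single genes, 728 kept their direction and side of the threshold, 129 fell short of it, 1 newly passed it and 12 reversed. Depth is unknown, which limits all statements on genes under 1 TPM.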
